A study of Arabidopsis thaliana with 11 samples.

Results

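The 44 WRKY transcription factor genes described here were taken from the count files by their gene identifiers. They form a set of 44 among the 33341 genes counted, and all 44 were among the 20718 genes with enough reads to be tested. A further 25 genes with a WRKY symbol in the RefSeq annotation are in the files and are not described. Their transcripts were measured by RNA-seq in mature roots of Arabidopsis thaliana plants that were grown for 7 days on plates and 16 days on soil, and then either left without water for 5 days (drought) or watered normally (control). BRL3ox plants carry 35S:BRL3-GFP, a fusion of the brassinosteroid (BR) receptor BRL3 to a fluorescent protein under the constitutive 35S promoter, and stand for 1 transgenic line. WT plants were untransformed Col-0. The 11 libraries comprised 3 of BRL3ox in drought, 2 of BRL3ox under control conditions (replicates 1 and 3), 3 of WT in drought and 3 of WT under control conditions. The labels number the replicates and do not say which plants were pooled or grown together.

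WRKY proteins are plant transcription factors named after the heptad WRKYGQK, which lies at the start of a zinc finger DNA-binding domain and contacts the W box, a DNA element with the core TTGAC. Members with a domain at each end form group I, those with a single domain form group II (divided into IIa to IIe by sequence) and those with a different zinc finger form group III. Many are early targets of the immune signalling that starts at cell surface receptors and passes through MAP kinases, and they regulate defence, salicylic acid synthesis, senescence and nutrient uptake. In Arabidopsis, WRKY46, WRKY54 and WRKY70 are also known partners of BES1, a transcription factor of the BR pathway, in promoting growth and restraining drought-responsive genes.

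The heptad codons are shown for 6 members to make the family feature that unites the set visible: WRKY36 and WRKY47 of group IIb, WRKY29 and WRKY65 of group IIe, WRKY18 of group IIa, and WRKY50 as a variant. Each run is 21 bases on the coding strand, in the TAIR10.1 assembly of RefSeq, at chr1:26277848-26277868 (minus strand) for WRKY36, chr4:747056-747076 (plus) for WRKY47, chr4:12292491-12292511 (plus) for WRKY29, chr1:10236922-10236942 (plus) for WRKY65, chr4:15384316-15384336 (plus) for WRKY18 and chr5:9147579-9147599 (minus) for WRKY50.
WRKY36: tggaggaaatatggtcaaaag
WRKY47: tggagaaaatacggtcagaaa
WRKY29: tggcgtaaatacgggcagaaa
WRKY65: tggcgtaagtacggccaaaag
WRKY18: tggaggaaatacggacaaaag
WRKY50: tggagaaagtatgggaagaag
All 44 coding sequences held such a run in an exon. The 8 group I genes held 2 and the other 36 genes held 1, and the 52 runs were spelled in 44 different ways. WRKY50 and WRKY51 encode the variant heptad WRKYGKK, and the others the standard one.

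The 250 bases upstream of the annotated start are given for 4 members and for WRKY30, which had the most W boxes. The 4 are WRKY29, WRKY36, WRKY47 and WRKY65, whose drought change differed between genotypes at an unadjusted p below 0.0025 (edgeR quasi-likelihood test). None of them passed an adjustment over all tested genes. Capitals mark W boxes, searched as TTGACC or TTGACT on both strands, so that AGTCAA is the same element read from the other strand. The windows lie in TAIR10.1 at chr4:12291382-12291631 (plus strand) for WRKY29, chr1:26279256-26279505 (minus) for WRKY36, chr4:744554-744803 (plus) for WRKY47, chr1:10236087-10236336 (plus) for WRKY65 and chr5:8154711-8154960 (minus) for WRKY30.
WRKY29: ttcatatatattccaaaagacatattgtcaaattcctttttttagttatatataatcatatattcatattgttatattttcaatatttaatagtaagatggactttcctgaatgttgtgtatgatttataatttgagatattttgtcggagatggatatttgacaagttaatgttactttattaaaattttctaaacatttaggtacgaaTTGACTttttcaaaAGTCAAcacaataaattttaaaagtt
WRKY36: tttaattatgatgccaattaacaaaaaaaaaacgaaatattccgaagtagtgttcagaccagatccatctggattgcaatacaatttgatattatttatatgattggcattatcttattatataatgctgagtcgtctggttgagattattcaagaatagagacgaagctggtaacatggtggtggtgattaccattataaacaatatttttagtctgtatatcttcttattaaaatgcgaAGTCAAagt
WRKY47: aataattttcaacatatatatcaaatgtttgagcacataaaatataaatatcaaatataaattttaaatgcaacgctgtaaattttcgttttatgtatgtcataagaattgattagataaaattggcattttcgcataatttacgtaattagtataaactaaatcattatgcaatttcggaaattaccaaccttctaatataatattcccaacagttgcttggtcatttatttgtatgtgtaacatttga
WRKY65: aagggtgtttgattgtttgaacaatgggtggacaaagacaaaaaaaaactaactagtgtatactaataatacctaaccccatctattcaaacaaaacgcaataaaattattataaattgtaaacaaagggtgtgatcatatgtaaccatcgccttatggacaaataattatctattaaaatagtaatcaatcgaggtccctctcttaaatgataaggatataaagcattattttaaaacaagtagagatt
WRKY30: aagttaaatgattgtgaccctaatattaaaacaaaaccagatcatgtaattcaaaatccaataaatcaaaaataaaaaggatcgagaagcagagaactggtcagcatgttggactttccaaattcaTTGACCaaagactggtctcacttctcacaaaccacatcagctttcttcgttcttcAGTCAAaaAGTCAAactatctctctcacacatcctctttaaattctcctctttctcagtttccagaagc
WRKY30 had 3 W boxes, which begin 124, 69 and 61 bases before the start, WRKY29 had 2 and WRKY36 had 1, while the windows of WRKY47 and WRKY65 held none. Among all 44 members, 15 windows (34.1%) held at least 1 W box, against 28.4% of 27443 gene starts, and 8 windows (18.2%) held 2 or more, against 6.18% of all starts. The G box CACGTG was in 5 member windows (11.4%, against 6.49% of all) and the BR response element, spelled CGTGTG or CGTGCG, in 6 (13.6%, against 6.71%). W boxes were in 4 of the 18 members that passed a test below and in 11 of the 26 that passed none. These matches describe letters in the windows and do not show binding.

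Reads counted on genes ranged between 18610736 and 22817390 per library. BRL3 itself, the transgene product, was at 2447, 3180.0 and 2935 CPM (counts scaled to a common library total) in BRL3ox in drought and 974 and 1652 CPM in BRL3ox under control conditions, against 44.8, 68.6 and 70.8 CPM in WT in drought and 62.1, 59.2 and 64.8 CPM in WT under control conditions, so every library matched its genotype label. Of 10 root cell type markers, none was at 0 in any library, and their summed level ranged between 2415 and 3770 CPM, most of it PYK10 (between 1993 and 3554 CPM), so the sum says little of the other 9. Of those, TIP2;3 was at 98.5, 112 and 71.7 CPM in BRL3ox in drought and 352 and 433 CPM in BRL3ox control, against 159.9, 79.5 and 42.8 CPM in WT in drought and 266, 245 and 208 CPM in WT control. Summed shoot photosynthesis markers ranged between 22.4 CPM in WT control replicate 3 and 390.2 CPM in WT control replicate 2, with 202 CPM in WT drought replicate 1 the next highest and 23.7 CPM in BRL3ox control replicate 3 the next lowest. A list of 12 early touch and wound genes summed to between 8004 and 8644 CPM in BRL3ox in drought, 4195 and 5164 CPM in BRL3ox under control conditions, between 7216 and 10228 CPM in WT in drought, and between 4819 and 8342 CPM in WT under control conditions. These are bulk roots, in which a change in the share of a cell type and a change of RNA per cell cannot be told apart.

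The WRKY genes spanned a wide range of levels. The exon-length-corrected mean ranged between 0.346 (WRKY42) and 720.4 CPM per kb (WRKY40) in BRL3ox in drought, between 1.08 (WRKY28) and 247 in BRL3ox under control conditions, between 0.407 (WRKY42) and 868 in WT in drought, and between 0.862 (WRKY42) and 525 in WT under control conditions, with WRKY40 highest in each group. WRKY40, WRKY33, WRKY46, WRKY18 and WRKY48 together made up between 66.8% and 69.3% of all member CPM in BRL3ox in drought, 47.0% and 50.2% in BRL3ox under control conditions, between 65.9% and 69.5% in WT in drought, and between 55.7% and 67.5% in WT under control conditions. The sample ranges of many neighbours in this order overlapped. WRKY40 lay above the member ranked next in drought in both genotypes without overlap, whereas under control conditions its sample range overlapped that of the next member in both genotypes. Between 7 and 9 members averaged below 5 CPM in each group, so that their values rest on few reads.

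**Figure D1:**
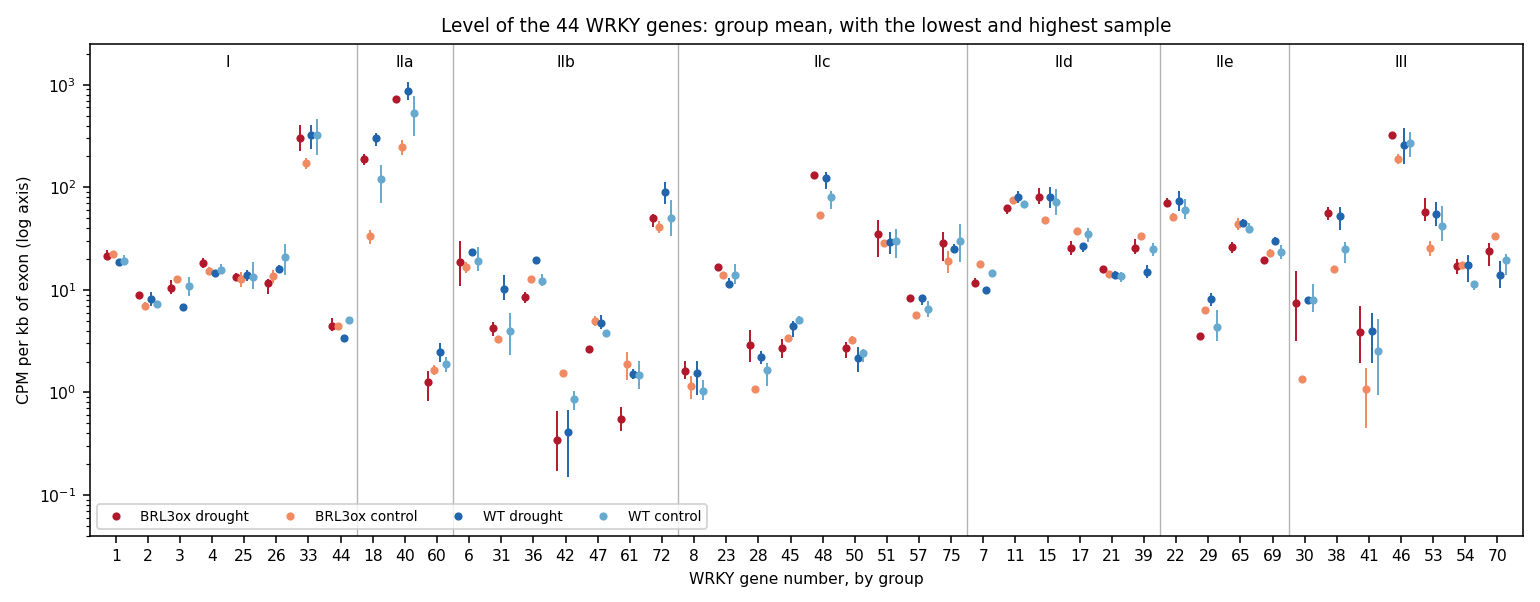
Level of each of the 44 WRKY genes in CPM per kb of exon, on a log axis, grouped by WRKY group. Points are group means and vertical lines join the lowest and highest sample (3 samples, and 2 for BRL3ox control). WRKY40 is the highest member in all groups and WRKY42 the lowest in all but BRL3ox control.

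Gene positions below are those of the TAIR10.1 annotation. The first comparison asked how BRL3ox roots differed from WT roots in drought. In BRL3ox, 7 WRKY genes were lower than in WT and 1 was higher, at a false discovery rate (FDR, Benjamini-Hochberg over all tested genes, edgeR quasi-likelihood test) below 0.05 and a fold change over 1.5. All 7 belonged to groups IIb and IIe: WRKY31, WRKY36, WRKY47 and WRKY61 of group IIb and WRKY29, WRKY65 and WRKY69 of group IIe. The gene that was higher was WRKY39 of group IId. Of all tested genes 2.12% were lower and 1.39% were higher by the same thresholds. The median log2 change of the 44 members was -0.03, while that of all tested genes was 0.00 to 2 decimals.

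WRKY36 (AT1G69810, chr1:26276948-26279255, minus strand) acts in light and ultraviolet-B signalling as a repressor of HY5. It was at 18.3, 14.3 and 17.5 CPM in BRL3ox in drought and 24.9 and 24.1 CPM in BRL3ox under control conditions, against 38.1, 40.0 and 36.0 CPM in WT in drought and 21.1, 22.4 and 27.9 CPM in WT under control conditions. The 3 BRL3ox drought samples were the lowest of all 11 and the 3 WT drought samples the highest, with no overlap. The drought level was 2.28-fold lower in BRL3ox (log2 change -1.19, SE 0.12, FDR 0.00353, edgeR), and this call was kept in each of the 11 fits that left out 1 library, with an FDR of at most 0.0181.

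WRKY47 (AT4G01720, chr4:744804-748554, plus strand) was at 4.82, 5.31 and 5.38 CPM in BRL3ox in drought, against 8.17, 8.31 and 11.1 CPM in WT in drought. Under control conditions it was at 8.67 and 10.8 CPM in BRL3ox and at 6.88, 7.70 and 7.46 CPM in WT. BRL3ox roots thus held the lowest values in drought and the 2 BRL3ox control samples lay above all WT control samples. The drought difference was 1.78-fold (log2 change -0.83, SE 0.15, FDR 0.0186, edgeR).

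WRKY61 (AT1G18860, chr1:6508797-6511397, plus strand) was a low-level gene, at 0.946, 0.784 and 1.36 CPM in BRL3ox in drought, against 2.52, 2.86 and 3.19 CPM in WT in drought. Under control conditions BRL3ox had 2.49 and 4.64 CPM and WT had 2.57, 2.04 and 3.81 CPM, and these overlapped. The drought difference was 2.77-fold (log2 change -1.47, SE 0.33, FDR 0.0370, edgeR). WRKY31 (AT4G22070, chr4:11691172-11694590, minus strand) was at 9.82, 7.70 and 10.6 CPM in BRL3ox in drought, against 17.2, 19.6 and 30.3 CPM in WT in drought, so the WT samples were all higher and were also spread more widely. In BRL3ox control it was at 6.66 and 7.76 CPM. Its log2 change was -1.25 (SE 0.31, FDR 0.0466, edgeR), close to the threshold.

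The other 3 members of group IIb had negative log2 changes without passing the test. WRKY72, which is needed for basal immunity, was at 110.2, 83.5 and 112 CPM in BRL3ox in drought, against 138, 179 and 228 CPM in WT in drought, without overlap (log2 change -0.84, SE 0.28, FDR 0.112, edgeR). WRKY6, a regulator of senescence and of the phosphate exporter PHO1, had a log2 change of -0.32 (SE 0.32) and overlapping samples. WRKY42, which also acts on PHO1 and on the phosphate transporter PHT1;1, had a log2 change of -0.23 (SE 0.56) at under 2 CPM in both. All 7 group IIb members therefore had lower estimates in BRL3ox, with a median log2 change of -0.84, and 4 of them passed.

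In group IIe, WRKY29 (AT4G23550, chr4:12291632-12293367, plus strand), a target of the MAP kinase cascade that follows perception of bacterial flagellin, was at 4.60, 4.75 and 5.33 CPM in BRL3ox in drought, against 9.64, 11.7 and 13.0 CPM in WT in drought. Under control conditions BRL3ox had 8.91 and 8.90 CPM and WT had 4.46, 4.56 and 8.93 CPM. The order of the genotypes in drought was thus without overlap, while under control conditions 1 WT sample matched BRL3ox. The drought level was 2.33-fold lower in BRL3ox (log2 change -1.22, SE 0.24, FDR 0.0255, edgeR). Genes on the opposite strand overlap WRKY29, WRKY61, WRKY69 and others of the set (10 of 44), and whether the counting used strand is not given in the sources used here.

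WRKY65 (AT1G29280, chr1:10236337-10237990, plus strand) was at 35.4, 40.7 and 45.2 CPM in BRL3ox in drought, against 76.4, 65.3 and 68.3 CPM in WT in drought, and at 58.9 and 77.9 CPM in BRL3ox, against 58.1, 55.7 and 70.2 CPM in WT, under control conditions. All BRL3ox drought samples lay below the other 8 libraries. The drought difference was 1.73-fold (log2 change -0.79, SE 0.14, FDR 0.0167, edgeR). WRKY69 (AT3G58710, chr3:21714911-21716916, plus strand) was at 25.2, 23.2 and 24.1 CPM in BRL3ox in drought, against 36.5, 34.2 and 41.3 CPM in WT in drought, a 1.54-fold lower level (log2 change -0.63, SE 0.12, FDR 0.0255, edgeR). Under control conditions it overlapped, at 26.5 and 31.0 CPM in BRL3ox, against 28.3, 24.8 and 34.4 CPM in WT. WRKY22, which acts with WRKY29 in flagellin signalling, overlapped between genotypes (log2 change -0.05, SE 0.20). The genes of group IIe that were lower were therefore WRKY29, WRKY65 and WRKY69, and not WRKY22.

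WRKY39 (AT3G04670, chr3:1266056-1268378, minus strand) of the calmodulin-binding group IId, known for a role in heat tolerance, was at 50.6, 70.9 and 51.1 CPM in BRL3ox in drought, against 39.2, 29.4 and 32.6 CPM in WT in drought. Its log2 change was 0.77 (SE 0.16, FDR 0.0289, edgeR), and under control conditions BRL3ox (75.5 and 73.8 CPM) also lay above WT (54.8, 64.8 and 47.4 CPM) with an FDR of 0.273.

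Calls near the threshold depended on single libraries. Without BRL3ox drought replicate 2, 1 member passed (WRKY36). Without WT drought replicate 3 or BRL3ox drought replicate 1, 3 members passed, and 4 passed without WT drought replicate 2. WRKY65 lost its call only without BRL3ox drought replicate 2 (highest FDR 0.0681), WRKY47 without BRL3ox drought replicate 1 or 2 (highest 0.0707), and WRKY29 without WT drought replicate 2 or 3 or BRL3ox drought replicate 1 or 2 (highest 0.106). WRKY69 lost it without WT drought replicate 3 or any BRL3ox drought library (highest 0.104), and WRKY39 without WT drought replicate 2 or 3, BRL3ox drought replicate 2 or either BRL3ox control library (highest 0.107). WRKY61 lost it in 6 of the 11 fits, without any WT drought library, BRL3ox drought replicate 1 or 2 or WT control replicate 1 (highest 0.147), and WRKY31 in 9, all but those without WT control replicate 2 or 3. The sign of each of these 8 estimates was kept in all 11 fits. Among the root cell type markers in the same comparison, CASP1 of the endodermis was lower in BRL3ox (log2 change -0.91, SE 0.21, FDR 0.0383, edgeR). The endodermis genes MYB36 and SCR overlapped between genotypes. At an unadjusted p below 0.05 by the same test, 4 of the 10 markers, CASP1, COBL9, RHD6 and EXP7, were lower and none higher, beside 23.1% of all tested genes in either direction. The part of the markers in the lower WRKY levels was not tested.

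**Figure D2:**
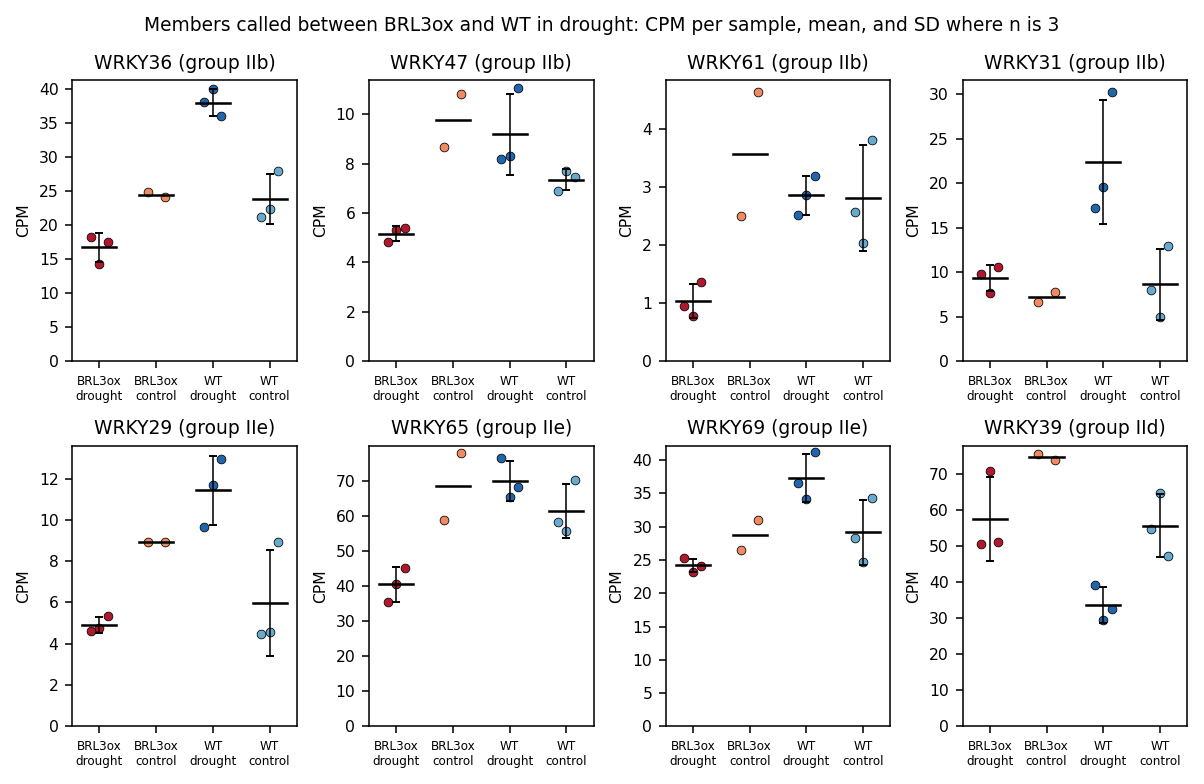
CPM of the 8 members called between BRL3ox and WT in drought, in every sample, with a bar at the group mean and the SD where a group has 3 samples. In drought, the 3 BRL3ox samples lie below the 3 WT samples in the 7 group IIb and IIe genes and above them in WRKY39.

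Outside groups IIb, IIe and IId no member passed in drought by the edgeR quasi-likelihood test. Group I had 0 of 8, group IIa 0 of 3, group IIc 0 of 9 and group III 0 of 7, with median log2 changes of 0.18, -0.66, 0.18 and 0.06. All 3 group IIa estimates were negative. By DESeq2 and by the edgeR likelihood ratio test, WRKY3 (group I), WRKY45 (IIc), WRKY60 (IIa), WRKY70 (III) and WRKY72 (IIb) passed too. With the replicate number as a block, the same genes except WRKY70 were added. WRKY60, a partner of WRKY18 and WRKY40 in defence and abscisic acid signalling, was at 2.12, 1.29 and 2.57 CPM in BRL3ox, against 3.13, 4.0 and 4.75 CPM in WT (log2 change -0.99, SE 0.27, FDR 0.0612, edgeR), and WRKY45, an activator of PHT1;1, at 2.97, 3.69 and 4.49 CPM in BRL3ox, against 4.74, 6.70 and 6.70 CPM in WT (log2 change -0.70, SE 0.19, FDR 0.0600). Neither passed by the quasi-likelihood test although the samples did not overlap. Among the BES1 partners, WRKY46 was at 437, 432 and 447 CPM in BRL3ox, against 230.1, 297 and 517 CPM in WT, and WRKY54 and WRKY46 overlapped between genotypes. WRKY70 was at 25.1, 38.1 and 42.1 CPM in BRL3ox, against 15.3, 27.8 and 18 CPM in WT, with overlap and an FDR of 0.105.

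**Figure D3:**
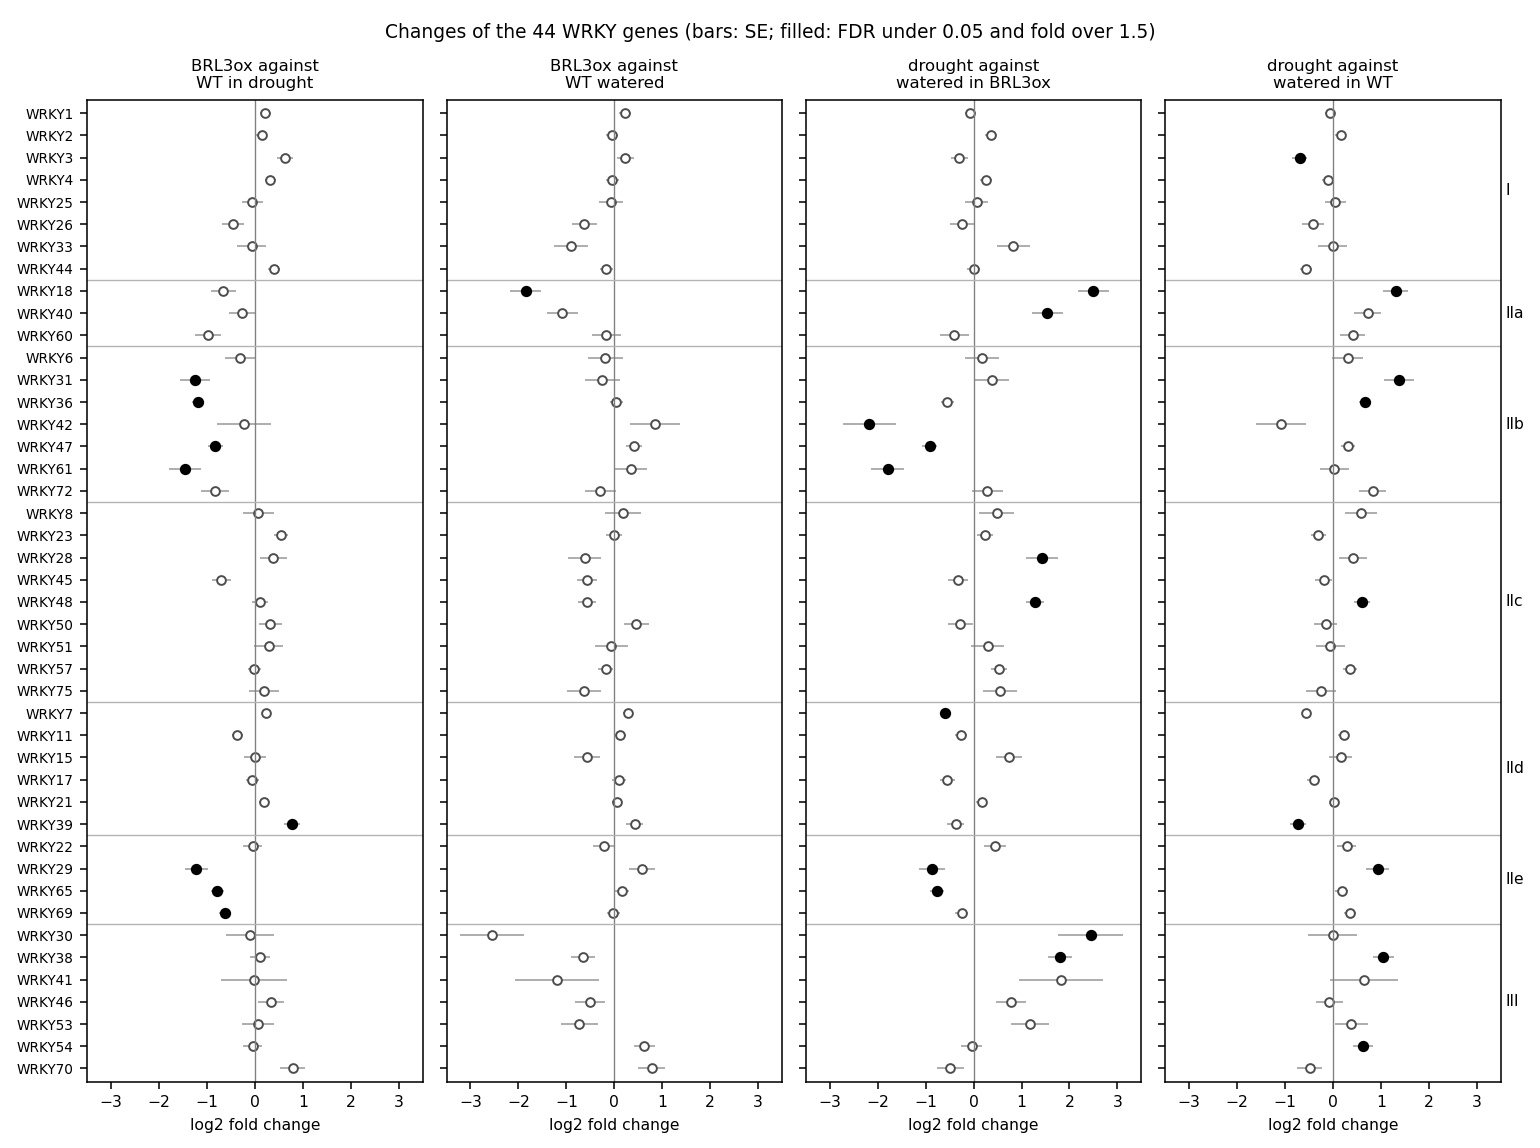
Log2 fold change (point) and SE (bar) of the 44 members in 4 comparisons, 1 row per gene, with lines between WRKY groups. Filled points passed FDR below 0.05 and a fold change over 1.5. In the first panel, 7 of the 8 filled points are group IIb or IIe genes left of 0.

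The same genotypes were then compared under control conditions. Here 1 member, WRKY18, was lower in BRL3ox and none was higher. Of all tested genes, 0.555% were lower and 0.217% higher. At an unadjusted p below 0.05, 8 members were lower and 5 higher by the same edgeR test, beside 16% of all tested genes in either direction, and DESeq2 called 3 members, all lower.

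WRKY18 (AT4G31800, chr4:15382777-15385100, plus strand), a pathogen-induced regulator of defence, was at 56.9 and 78.5 CPM in BRL3ox and at 258, 141 and 334 CPM in WT under control conditions. Both BRL3ox samples lay below all WT samples, and the level was 3.61-fold lower (log2 change -1.85, SE 0.32, FDR 0.0396, edgeR). Its close relative WRKY40 (AT1G80840, chr1:30383561-30385499, plus strand) was at 274 and 382 CPM in BRL3ox and at 639.9, 420.4 and 1026 CPM in WT, without overlap (log2 change -1.09, SE 0.32, FDR 0.130). WRKY30 (AT5G24110, chr5:8153115-8154710, minus strand) of group III, a gene induced by reactive oxygen, was at 1.72 and 1.77 CPM in BRL3ox, against 7.82, 8.24 and 14.8 CPM in WT (log2 change -2.55, SE 0.67, FDR 0.0953). These 3 genes had the smallest p values of the members in this comparison, and WRKY18 alone passed. In a fit with the replicate number as a block, WRKY15, WRKY30, WRKY33, WRKY40 and WRKY53 passed too.

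The WRKY18 call under control conditions was lost in 9 of the 11 fits that left out 1 library, in which the FDR rose above 0.05 while the log2 change stayed between -2.13 and -1.56. It was kept without WT drought replicate 1 and without WT control replicate 2, and in the fit without WT control replicate 2 WRKY26, WRKY40 and WRKY48 joined it. The touch and wound list lay lower in BRL3ox (4195 and 5164 CPM) than in WT (6335, 4819 and 8342 CPM) except that WT replicate 2 lay between the BRL3ox samples, and WRKY18 and WRKY40 also had their lowest WT value in WT replicate 2. The part of handling or touch in these levels was not tested.

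The response to drought was then followed within each genotype. In BRL3ox, 6 members rose in drought and 6 fell. Those that rose were WRKY18 and WRKY40 of group IIa, WRKY30 and WRKY38 of group III and WRKY28 and WRKY48 of group IIc. Those that fell were WRKY42, WRKY47 and WRKY61 of group IIb, WRKY29 and WRKY65 of group IIe and WRKY7 of group IId. Among all tested genes 9.14% rose and 6.98% fell, beside 6 of 44 members in each direction, and the difference between members and all genes was not tested. In WT, 7 members rose (WRKY18, WRKY29, WRKY31, WRKY36, WRKY38, WRKY48 and WRKY54) and 2 fell (WRKY3 and WRKY39), beside 7.54% and 4.84% of all tested genes.

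WRKY18 in drought was at 429, 334 and 386 CPM in BRL3ox, against 56.9 and 78.5 CPM under control conditions. In WT it was at 511, 688 and 619 CPM in drought, against 258, 141 and 334 CPM under control conditions. It rose in both genotypes without overlap, 5.66-fold in BRL3ox (log2 change 2.5, SE 0.33, FDR 0.00102) and 2.48-fold in WT (log2 change 1.31, SE 0.27, FDR 0.00861, edgeR), and both calls were kept in all 11 fits that left out 1 library. In drought the BRL3ox samples lay below the WT samples (log2 change -0.66, SE 0.27, FDR 0.166), which did not pass.

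WRKY38 (AT5G22570, chr5:7495455-7496990, minus strand), which restrains basal defence, was at 72.4, 62.7 and 83.9 CPM in BRL3ox in drought, against 19.4 and 22.2 CPM in BRL3ox control. In WT it was at 49.8, 70.7 and 83.9 CPM in drought, against 36.5, 24.0 and 37.9 CPM under control conditions. The drought samples lay above the control samples in both genotypes, by 3.51-fold in BRL3ox (FDR 0.00130) and 2.08-fold in WT (FDR 0.00818, edgeR), with calls kept in all 11 fits. WRKY48 (AT5G49520, chr5:20090648-20093346, plus strand), another negative regulator of basal resistance, was at 263, 250.1 and 244 CPM in BRL3ox in drought, against 103 and 105 CPM in BRL3ox control. In WT it was at 185, 249.7 and 271 CPM in drought, against 167, 117 and 177 CPM under control conditions. It rose 2.43-fold in BRL3ox (FDR 0.00182) and 1.53-fold in WT (FDR 0.0287, edgeR), and its WT call was lost in 4 of the 11 fits, without WT drought replicate 2 or 3 or WT control replicate 1 or 2.

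WRKY40 in drought was at 988, 889 and 987 CPM in BRL3ox, against 274 and 382 CPM under control conditions. In WT it was at 939, 1101 and 1409.6 CPM in drought, against 639.9, 420.4 and 1026 CPM under control conditions, where replicate 3 overlapped the drought samples. It rose 2.91-fold in BRL3ox (log2 change 1.54, SE 0.33, FDR 0.00903), a call that was lost without BRL3ox control replicate 1 (FDR 0.0961, edgeR), and in WT the log2 change of 0.73 (SE 0.28, FDR 0.0972) did not pass. Of the 45-base stretches in the WRKY40 exons, 2.65% also occur in other genes, and no other member shared any.

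**Figure D4:**
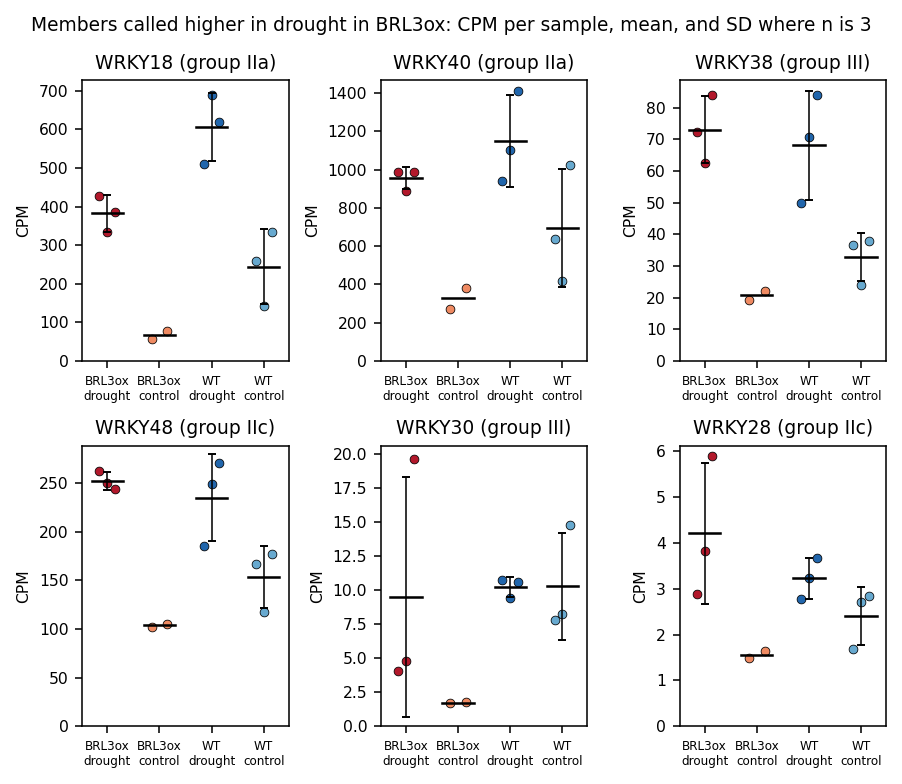
CPM of the 6 members that rose in drought in BRL3ox, in every sample, with group means and the SD where a group has 3 samples. The 2 BRL3ox control samples lie below all BRL3ox drought samples in each panel, and WRKY30 reaches 19.7 CPM in a single BRL3ox drought sample.

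WRKY30 and WRKY28 also rose in BRL3ox, at low levels. WRKY30 was at 4.10, 4.8 and 19.7 CPM in BRL3ox in drought, against 1.72 and 1.77 CPM in BRL3ox control, so replicate 3 stood well above the other drought samples (log2 change 2.44, SE 0.67, FDR 0.0261, edgeR). Without that library the log2 change was 1.34 and the call was kept. WRKY28 (AT4G18170, chr4:10061214-10062893, plus strand), which binds the promoter of the salicylic acid synthesis gene ICS1, was at 2.88, 3.83 and 5.89 CPM in BRL3ox in drought, against 1.49 and 1.65 CPM in BRL3ox control (log2 change 1.42, SE 0.33, FDR 0.0136). In WT, WRKY30 was at 10.7, 9.40 and 10.6 CPM in drought, against 7.82, 8.24 and 14.8 CPM under control conditions, and WRKY28 at 2.77, 3.22 and 3.67 CPM in drought, against 1.68, 2.70 and 2.83 CPM, with overlap in both genes. Both BRL3ox calls were lost without BRL3ox control replicate 1 or 3, where the FDR reached 0.146 for WRKY30 and 0.106 for WRKY28.

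Among the genes that fell in BRL3ox in drought, WRKY42 (AT4G04450, chr4:2218042-2221260, plus strand) was at 0.496, 0.415 and 1.59 CPM, against 3.69 and 3.84 CPM under control conditions (4.51-fold lower, log2 change -2.17, SE 0.55, FDR 0.0189, edgeR). In WT it was at 0.958, 0.364 and 1.62 CPM in drought, against 2.47, 2.13 and 1.63 CPM (log2 change -1.08, SE 0.53, FDR 0.177), so the direction was the same and the WT change did not pass. WRKY7 (AT4G24240, chr4:12571538-12573783, plus strand) of the calmodulin-binding group IId, known to restrain basal defence, was at 24.1, 27.9 and 23.0 CPM in BRL3ox in drought, against 38.7 and 37.4 CPM under control conditions, and at 21.3, 19.5 and 23.0 CPM in WT in drought, against 30.8, 31.7 and 31.5 CPM. Its log2 changes were -0.60 (SE 0.10, FDR 0.00263) in BRL3ox and -0.56 (SE 0.09, FDR 0.00324) in WT, where the fold change of the WT value stayed under 1.5.

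The falls of WRKY61 and WRKY42 were the largest among members in BRL3ox. WRKY61 fell by 1.79 on the log2 scale (SE 0.35, FDR 0.00599), WRKY47 by 0.92 (SE 0.16, FDR 0.00379), WRKY29 by 0.86 (SE 0.27, FDR 0.0418) and WRKY65 by 0.76 (SE 0.15, FDR 0.00625, edgeR), each without overlap between drought and control samples. Without BRL3ox control replicate 3, WRKY47, WRKY61 and WRKY65 lost these calls (highest FDR 0.0524, 0.0797 and 0.0706), and 5 members passed in place of 12. WRKY29 lost its call in 6 fits, without any 1 of the BRL3ox libraries or WT drought replicate 2 (highest FDR 0.160). WRKY42 lost it without BRL3ox drought replicate 1 or 2 or either control library (highest 0.0922), and WRKY7 without BRL3ox drought replicate 1 or 3 or BRL3ox control replicate 1, where its fold change was under 1.5. Without BRL3ox control replicate 1, 6 members passed.

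In WT, WRKY36 rose 1.60-fold in drought (log2 change 0.67, SE 0.12, FDR 0.00485, edgeR), without overlap and in all 11 fits that left out 1 library. WRKY31 rose 2.60-fold (log2 change 1.38, SE 0.31, FDR 0.0135) with drought samples at 17.2, 19.6 and 30.3 CPM, against 7.98, 5.00 and 12.9 CPM under control conditions, and lost its call without WT drought replicate 3 (FDR 0.0526). WRKY29 rose 1.92-fold (log2 change 0.94, SE 0.24, FDR 0.0234), a call lost without WT drought replicate 2 or 3 or WT control replicate 1 or 2 (highest FDR 0.0817). These 3 genes belong to groups IIb and IIe, which held the members that were lower in BRL3ox in drought. The comparisons share the WT drought samples.

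WRKY54 (AT2G40750, chr2:17000419-17002528, minus strand), a negative regulator of senescence, was at 17.2, 27 and 31.2 CPM in WT in drought, against 16.7, 17.6 and 14.3 CPM under control conditions, with overlap. In BRL3ox it was at 20.2, 24.3 and 28.4 CPM in drought, against 24.9 and 24.9 CPM under control conditions. Its FDR of 0.0499 lay at the threshold, and the call was lost in 10 of 11 fits, all but the one without WT drought replicate 1. WRKY39 was at 39.2, 29.4 and 32.6 CPM in WT in drought, against 54.8, 64.8 and 47.4 CPM under control conditions (log2 change -0.72, SE 0.16, FDR 0.0132, edgeR). WRKY3 (AT2G03340, chr2:1014350-1017222, minus strand), a group I gene with a role in resistance to fungi that feed on dead tissue, was at 14.6, 14.8 and 15.1 CPM in WT in drought, against 22.6, 29.7 and 19.4 CPM under control conditions (log2 change -0.69, SE 0.16, FDR 0.0164). In BRL3ox WRKY3 was at 20.3, 27.7 and 20.2 CPM in drought, against 27.4 and 28.6 CPM under control conditions. WRKY39 lost its call without WT drought replicate 2 (FDR 0.0525), and WRKY3 without WT drought replicate 2 or WT control replicate 2 (highest FDR 0.0549). Without WT drought replicate 2, 4 members passed in WT, and 5 passed without WT control replicate 2, the library with the most photosynthesis transcripts.

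The 2 genotypes were then set against each other in their drought response, as the log2 change in BRL3ox minus that in WT. By an unadjusted p below 0.0025, 4 members had a more negative drought change in BRL3ox (WRKY29, WRKY36, WRKY47 and WRKY65) and none had a more positive one, beside 0.603% and 0.348% of all tested genes. No member reached an FDR below 0.05 by the edgeR quasi-likelihood test, in which 2 genes of all tested did. At an unadjusted p below 0.05, 8 members were more negative and 7 more positive, beside 10.8% of all tested genes in either direction. By DESeq2 and by the edgeR likelihood ratio test, 5 members (WRKY29, WRKY36, WRKY47, WRKY61 and WRKY65) had an FDR below 0.05, of 214 genes in all by DESeq2 and 202 by the likelihood ratio test.

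WRKY36 had a log2 change of -0.55 (SE 0.14, FDR 0.0161) in BRL3ox, short of the fold threshold, and rose in WT. The difference was -1.23 (SE 0.18, FDR 0.0880, edgeR). WRKY29 moved in opposite directions in the 2 genotypes and passed in both, with a difference of -1.80 (SE 0.36, FDR 0.207). Of the 11 fits that left out 1 library, 6 lost its BRL3ox call and 4 its WT call. WRKY47 differed by -1.24 (SE 0.22, FDR 0.170) and WRKY65 by -0.95 (SE 0.20, FDR 0.217, edgeR), and both fell in BRL3ox while their WT changes of 0.32 (SE 0.15) and 0.19 (SE 0.14) did not pass. WRKY61, at -1.82 (SE 0.47, FDR 0.262, edgeR), lay just outside the threshold. Without BRL3ox control replicate 3, the p of WRKY65 was 0.00494, and the other 3 stayed below 0.0025 in all 11 fits.

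All 7 group IIb members had a more negative estimate in BRL3ox, with a median difference of -1.09, and 3 of 4 group IIe members did, with a median of -0.78. The other groups had positive medians: 0.27 in group I (8 genes), 0.82 in IIa (3), 0.35 in IIc (9), 0.04 in IId (6) and 0.79 in III (7), against 0.15 over all 44 members and 0.01 over all tested genes. WRKY30 (2.44, SE 0.83, FDR 0.359) and WRKY18 (1.19, SE 0.40, FDR 0.358) had the largest positive differences among those with an unadjusted p below 0.05. For both, the BRL3ox control samples were the lowest of the 4 groups, and the 2 genotypes lay closer in drought.

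**Figure D5:**
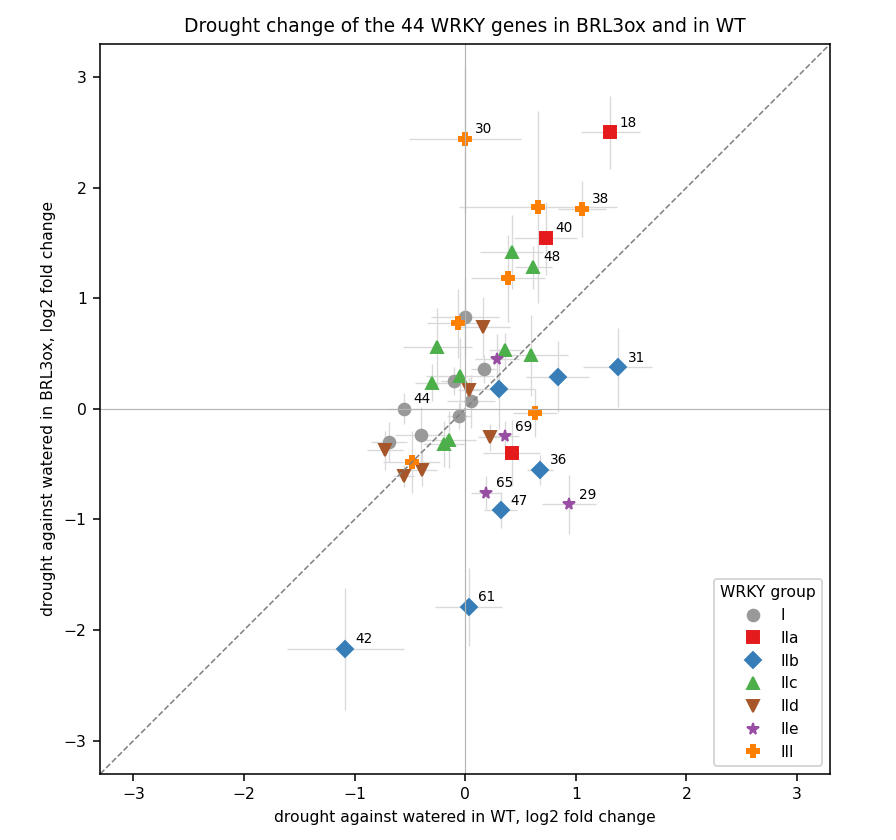
Drought change of each member in BRL3ox (vertical, log2 fold change) against that in WT (horizontal), with SE bars and a dashed line of equal change. Numbers are WRKY gene numbers. The group IIb genes lie below the line and most group IIa and III genes above it.

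The remaining members passed in no comparison by the edgeR quasi-likelihood test, although some had estimates as large as those of members that passed. In group I, WRKY33, which drives synthesis of the phytoalexin camalexin, was at 457, 586 and 814 CPM in BRL3ox in drought and 302 and 393 CPM in BRL3ox control, against 483, 655 and 812 CPM in WT in drought and 596, 419.6 and 936 CPM in WT control. In BRL3ox its drought samples lay above its control samples (log2 change 0.83, SE 0.35, FDR 0.118, edgeR), and in WT they overlapped. Under control conditions its BRL3ox samples lay below all WT samples (log2 change -0.90, SE 0.35, FDR 0.236, edgeR). WRKY44, known as TTG2 for its role in trichomes and seed coat, had a WT drought change of -0.56 (SE 0.13, FDR 0.0133) with a fold change under 1.5, against 0.00 (SE 0.14) in BRL3ox. WRKY1, WRKY2, WRKY4, WRKY25 and WRKY26 passed in no comparison.

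In group III, WRKY53, an activator of senescence, was at 72.0, 71.0 and 120.1 CPM in BRL3ox in drought and 32.4 and 45 CPM in BRL3ox control, and at 63.4, 79.2 and 109 CPM in WT in drought and 46.6, 45.3 and 101 CPM in WT control. The BRL3ox samples did not overlap, with a log2 change of 1.18 (SE 0.39, FDR 0.0548, edgeR) that missed the threshold. WRKY53 did pass there by DESeq2, by the edgeR likelihood ratio test and without the count filter. By the quasi-likelihood test WRKY46 did not pass in either genotype (log2 changes 0.77, SE 0.31, in BRL3ox and -0.07, SE 0.27, in WT). Its BRL3ox drought samples nevertheless lay above the BRL3ox control samples of 229 and 285 CPM. WRKY70 had log2 changes of -0.48 (SE 0.28) in BRL3ox and -0.49 (SE 0.26) in WT, and was at 47.1 and 51.1 CPM in BRL3ox, against 33.0, 31.9 and 20.6 CPM in WT, under control conditions (FDR 0.201). WRKY41, at 0.527 to 8.23 CPM, varied widely between replicates and passed in no comparison. Its values increased with the replicate number in every group, and at each shared number the drought sample lay above the control sample. A fit with the replicate number as a block called it for drought in both genotypes. For drought in BRL3ox, that fit also called WRKY15, WRKY33, WRKY46 and WRKY53, as did a fit of only the 2 groups compared. The labels do not say that a number marks a shared batch.

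In groups IIc and IId, WRKY17, a negative regulator of basal resistance, was at 33.8, 37.7 and 45.6 CPM in BRL3ox in drought and 57.4 and 56.8 CPM in BRL3ox control, with a fold change under 1.5 (log2 change -0.55, SE 0.15, FDR 0.0271, edgeR). WRKY57, known for drought tolerance when overexpressed, was at 18.3, 16.1 and 16.7 CPM in BRL3ox in drought, against 12.6 and 11.1 CPM in BRL3ox control (log2 change 0.53, SE 0.16, FDR 0.0385), again under the fold threshold. WRKY23, which acts in auxin-dependent root patterning, was at 30.0, 33.0 and 31.7 CPM in BRL3ox in drought, against 20.1, 19.9 and 25.0 CPM in WT in drought, without overlap (log2 change 0.54, SE 0.15, FDR 0.0659). WRKY75, a regulator of the phosphate starvation response, overlapped between drought and control samples in both genotypes. WRKY8, WRKY50 and WRKY51 of IIc and WRKY11, WRKY15 and WRKY21 of IId also passed in no comparison.

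Genes that act upstream of WRKY factors, and other related genes, were read from lists. Beside the counts below, 9.14% of all tested genes rose and 6.98% fell in drought in BRL3ox, and 7.54% rose and 4.84% fell in WT. Between genotypes in drought, 2.12% of all tested genes were lower in BRL3ox and 1.39% higher. Differences between the lists and all genes were not tested. Of 8 pattern receptors and co-receptors, FLS2, the flagellin receptor, was lower in BRL3ox in drought at 8.65, 6.32 and 5.84 CPM, against 16.1, 28.9 and 24.6 CPM in WT in drought (log2 change -1.74, SE 0.25, FDR 0.0113, edgeR), with no overlap. It rose in WT in drought (log2 change 0.94, SE 0.24, FDR 0.0239). The other 7 did not pass between genotypes in drought, and none of the 8 passed under control conditions. The medians of all 8 were -0.25 in drought and -0.62 under control conditions. At an unadjusted p below 0.05 (edgeR), 2 were lower in drought and 5 under control conditions, and none was higher. Of all tested genes, 23.1% and 16% had such a p in either direction. In BRL3ox in drought, LYK5, PEPR1 and PEPR2, which sense chitin and plant danger peptides, rose, and of the 8 genes none fell (in WT, 1 rose and none fell).

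Of 14 MAP kinase cascade and calcium-dependent kinase genes, none passed between genotypes. At an unadjusted p below 0.05, 3 were lower and none higher in drought, and 7 were lower and none higher under control conditions by the edgeR test. Of all tested genes, 23.1% in drought and 16% under control conditions had such a p in either direction. In drought, MEKK1, MKK9, MPK11 and CPK6 rose in BRL3ox, while MKK9 rose in WT. MPK11 was at 22.2, 21.8 and 25.9 CPM in BRL3ox in drought, against 4.79 and 7.93 CPM in BRL3ox control (log2 change 1.86, SE 0.48, FDR 0.0195). None of these kinases differed in the test of the drought responses at p below 0.05.

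VQ proteins bind WRKY factors and modulate them. Of 18 genes of this kind, 15 were tested and 1 passed between genotypes in drought, AT2G44340, annotated as a VQ motif-containing protein. It was at 0.406, 0.600 and 0.374 CPM in BRL3ox in drought and 4.02 and 4.05 CPM in BRL3ox control, against 0.858, 1.56 and 1.67 CPM in WT in drought and 2.1, 2.21 and 1.25 CPM in WT control. Its log2 change between genotypes in drought was -1.55 (SE 0.35, FDR 0.0381, edgeR), its drought change in BRL3ox was -3.12 (SE 0.35, FDR 0.000522), and the drought responses differed by -2.67 (SE 0.47, FDR 0.170). In drought 1 of the 15 tested genes rose and 2 fell in BRL3ox, and 1 rose and 1 fell in WT. SIB1, a partner of WRKY33, fell in WT in drought (log2 change -0.84, SE 0.24, FDR 0.0342).

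Of 19 genes for salicylic acid, camalexin and defence output, 16 were tested, and none passed between genotypes in drought. ACS2, an ethylene synthesis gene, was lower in BRL3ox under control conditions at 3.55 and 3.59 CPM, against 12.3, 7.26 and 13.2 CPM in WT (log2 change -1.61, SE 0.28, FDR 0.0413, edgeR). ICS1, the salicylic acid synthesis gene that WRKY28 binds, was at 76.9, 61.3 and 72.9 CPM in BRL3ox in drought, against 27.5 and 37.7 CPM in BRL3ox control, and at 81.3, 94.3 and 159 CPM in WT in drought, against 44.2, 29.6 and 64.0 CPM in WT control. It rose in both genotypes (FDR 0.0414 in BRL3ox and 0.0153 in WT), as did EDS5, the salicylic acid exporter, and PR2, a defence output at under 4 CPM. CBP60G, an activator of ICS1, fell in both genotypes (log2 changes -1.0, SE 0.31, in BRL3ox and -1.11, SE 0.29, in WT) and SARD1, its relative, fell in WT. In all, 4 genes of this list rose and 1 fell in BRL3ox, beside 9.14% and 6.98% of all tested genes. In WT, 3 rose and 2 fell, beside 7.54% and 4.84%.

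Among 5 phosphate genes under the control of WRKY6, WRKY42, WRKY45 and WRKY75 or of the same pathway, PHT1;1 was at 7.75, 8.21 and 7.15 CPM in BRL3ox in drought and 57.4 and 62.6 CPM in BRL3ox control, against 15.6, 15.2 and 8.96 CPM in WT in drought and 41.4, 40.5 and 49.5 CPM in WT control. It fell in drought in both genotypes, 7.78-fold in BRL3ox (log2 change -2.96, SE 0.20, FDR 3.15e-05) and 3.3-fold in WT (log2 change -1.72, SE 0.18, FDR 0.000395), was lower in BRL3ox than in WT in drought (log2 change -0.78, SE 0.19, FDR 0.0428), and its drought responses differed by -1.24 (SE 0.26, FDR 0.217, edgeR). PHO1 was at 289, 446 and 299.6 CPM in BRL3ox in drought, against 603 and 685 CPM in BRL3ox control, and at 252, 283 and 265 CPM in WT in drought, against 479, 548 and 546 CPM in WT control. It fell in both genotypes (log2 changes -0.90, SE 0.17, and -0.98, SE 0.16). A relation of PHO1 to the levels of WRKY6 or WRKY42 was not tested. Of the 5 genes, none rose and 2 fell in BRL3ox, and 1 rose and 2 fell in WT.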

How the data were processed

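Counts of reads per gene were deposited by the authors, 1 file per library, as whole numbers without normalization. Per the labels, libraries came from polyA RNA of mature roots with a stranded TruSeq mRNA kit, and the submitters' processing notes name FastQC, HISAT2 2.1.0, HTSeq 0.9.1 and the TAIR10 genome. Whether the counting used strand is not given in the sources used here. The summary classes that name no gene held between 10.5% and 12.9% of counts and were left out. Library depth was between 18610736 and 22817390 counts on genes, and nothing in the counts of any 2 replicates pointed to a library deposited more than once (ratio of chi-square to degrees of freedom, 8.28 to 42.8).

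Genes passing filterByExpr (20718 of 33341) were fitted in 1 edgeR 4.0.16 quasi-likelihood model over all 11 samples with TMM normalization, 1 coefficient per group and no covariate (R 4.3.3). FDR is the Benjamini-Hochberg value over all tested genes. A gene passed at an FDR below 0.05 and a fold change over 1.5, and the difference of drought responses at an unadjusted p below 0.0025. SE was derived from the log2 change and its F statistic. CPM used TMM-scaled library totals, and CPM per kb divided it by exon length. The p-values weigh differences between groups against the spread between these samples, without a block for the replicate number.

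Values in every sample are given for the 18 members that passed in any test, which also hold the 4 smallest p values of each test, and other members by range or counts, apart from some given by sample that were chosen after their values were seen. Members and lists were chosen with earlier results of these data known. Alternatives were RLE normalization, no filter beyond 1 count, the edgeR likelihood ratio test, DESeq2 1.42.0, a fold of 2, an FDR threshold for the difference of responses, only the groups compared, the replicate number as a block, and leaving out each library. The fitting steps were tested on simulated data. Sequences and positions came from RefSeq TAIR10.1, whose annotation matched all 44 symbols or synonyms. Of 18 VQ genes, 7 names matched.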

Additional observations from a re-analysis of the deposited data

Results flagged for a closer look

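The drought response of 4 genes differed between the genotypes by the test of the difference itself, with log2 change in BRL3ox minus log2 change in WT of -1.80 for WRKY29, -1.23 for WRKY36, -1.24 for WRKY47 and -0.95 for WRKY65 (unadjusted p below 0.0025 in each). By the edgeR quasi-likelihood test with Benjamini-Hochberg adjustment their FDR was 0.207, 0.0880, 0.170 and 0.217, so none passes a correction over all genes. All BRL3ox drought samples lay below all WT drought samples for these 4 genes. The test that picked the genes used the same samples, so this separation is no further support. Among the 44 members, 13 were lower and 7 higher without overlap in drought. The share over all tested genes was not counted. Under control conditions the genotypes overlapped for WRKY29, WRKY36 and WRKY65, and both BRL3ox samples of WRKY47 lay above all WT samples.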

How the results depend on the processing

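RLE normalization and the absence of a count filter left every count of members within 1.5 times its value. Of the results for single genes under all alternatives, 1461 stayed on their side of the threshold, 33 passed in addition and 108 no longer passed. The 108 are out of 608 values of changes that had passed, and the 33 out of 994 values of changes that had not. No change that passed turned its sign under an alternative, while 29 values of 14 changes that did not pass did, such as WRKY30 in drought between genotypes (between -1.20 and 0.26 with 1 library left out). For BRL3ox against WT in drought, 8 members passed, against 13 by the edgeR likelihood ratio test, 13 by DESeq2 and 4 at a fold of 2. Under control conditions 1 passed, against 3 by the likelihood ratio test, 3 by DESeq2 and 0 with only the 2 groups fitted. In WT drought 9 passed, against 3 at a fold of 2 and 5 with only the 2 groups fitted. For the difference of responses, 4 members met p below 0.0025 and 0 met an FDR below 0.05. Leaving out 1 library gave between 1 and 10 members in drought, between 0 and 4 under control conditions, between 5 and 14 for drought in BRL3ox, between 4 and 11 for drought in WT and between 3 and 6 for the difference. Of 34 calls, 10 were kept in all 11 such fits and 11 were lost in 4 or more.

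With the replicate block, 12 members passed in drought, 6 under control conditions, 17 for drought in BRL3ox, 12 for drought in WT and 5 for the difference. Those added under control conditions were WRKY15, WRKY30, WRKY33, WRKY40 and WRKY53. The labels do not say that a number marks a shared batch. Same-numbered samples of different groups correlated in their deviations at a mean of 0.150 over 15 pairs (between -0.088 and 0.412, over 0.1 in 11), and 10 of 11 samples were closest to their own number. The BRL3ox control group has 2 libraries, which limits every comparison with it, and members under 5 CPM rest on few reads.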

Other observations

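The 44 members together summed to 3715, 3698 and 4308 CPM in BRL3ox in drought, 2055 and 2478 CPM in BRL3ox control, 3564, 4349 and 5223 CPM in WT in drought, and 3152, 2454 and 4353 CPM in WT control. The sum was lowest in BRL3ox control replicate 1, and the 2 BRL3ox control samples bracket the lowest WT control sample. The touch and wound list, read in the same libraries, was likewise lowest in BRL3ox control replicate 1 (4195 CPM) and highest in WT drought replicate 3 (10228 CPM), as the member sum was. In that list TCH4, a cell wall enzyme induced by touch, was at 2119.9, 2019 and 2030.1 CPM in BRL3ox in drought and 582 and 712 CPM in BRL3ox control, against 1946, 2621 and 2529 CPM in WT in drought and 1354, 840.1 and 1659 CPM in WT control, and rose in drought in both genotypes (edgeR FDR 0.00210 in BRL3ox and 0.0213 in WT).

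Across the 44 members, the mean log2 deviation from the group mean was positive in replicate 3 of every group, at 0.22 in BRL3ox drought, 0.12 in BRL3ox control, 0.20 in WT drought and 0.25 in WT control, and negative in the other 7 libraries, between -0.18 and -0.04.

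Root cell type markers were not level across groups. CASP1, which marks the Casparian strip of the endodermis, was at 33.6, 25.1 and 40.1 CPM in BRL3ox in drought and 60.1 and 60.7 CPM in BRL3ox control, against 75.5, 52.3 and 57.2 CPM in WT in drought and 54.9, 52.2 and 79.0 CPM in WT control. It was lower in BRL3ox in drought (log2 change -0.91, SE 0.21, edgeR FDR 0.0383), and was the 1 of 10 root markers that passed between genotypes in drought. At an unadjusted p below 0.05 by the same test 4 of the 10 were lower and none higher: CASP1 and the root hair genes COBL9 (log2 change -0.83, FDR 0.0657), RHD6 (-0.89, FDR 0.0922) and EXP7 (-0.84, FDR 0.129). Of all tested genes, 23.1% had such a p in either direction. COBL9 was at 10.9, 7.34 and 12.6 CPM in BRL3ox in drought, against 16.6, 17.8 and 20.5 CPM in WT in drought, and RHD6 at 6.85, 3.88 and 9.26 CPM, against 12.3, 11.3 and 13.3 CPM, without overlap. The endodermis genes MYB36 (16.2, 16.1 and 19.8 CPM in BRL3ox in drought, against 17.1, 14.1 and 13.5 CPM in WT in drought) and SCR (18.9, 22.6 and 21.4 CPM, against 26.0, 17.2 and 18.3 CPM) overlapped. Of the 10 root markers, 5 fell in drought in BRL3ox (SHR, SCR, CASP1, WER and TIP2;3), beside 6.98% of all tested genes. In WT, 2 fell (WER and TIP2;3), beside 4.84%. The part of the markers in the member changes was not tested.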
